A study of Homo sapiens with 15 samples.

Results

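The 38 genes described here encode proteins of the G2 to M transition and of mitosis, and they were taken as a list of gene symbols whose rule used no measured value, although the list was drawn up with earlier results of these data known. All 38 have 1 identifier in the count tables, and all 38 passed the filter on low counts that left 11113 of 47634 identifiers for testing. They were measured in IGROV-CP20, an ovarian cancer cell line made resistant to cisplatin, in 15 libraries of total RNA that fall into 5 conditions of 3 libraries each. One condition was left untreated, another received cisplatin at 50 µM during 24 h, and in the remaining 3 that exposure followed 24 h with 10 µM of Telmisartan, of Tranilast or of Amphotericin B. The study asked what these approved drugs, chosen in a screen for compounds that raise killing by cisplatin, change in the transcriptome of the resistant cells. No library holds a drug without cisplatin, and the parental sensitive line is not among the samples, so that no comparison here separates a drug's own effect from its effect on cisplatin-treated cells. The labels call the 3 libraries of a condition biological replicates, all of 1 cell line.

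Cells commit to mitosis when CDK1, bound to cyclin B or cyclin A, is freed of its inhibitory phosphates by CDC25 phosphatases and is kept active by PLK1 and Aurora kinases. Kinetochore proteins then join chromosomes to spindle microtubules that kinesins and their partners organise. The anaphase-promoting complex (APC/C), with CDC20 and the ubiquitin-conjugating enzyme UBE2C, destroys securin (PTTG1) and cyclin B so that separase can part the sister chromatids. These genes are transcribed mainly in late S, G2 and M phase, and their promoters are known for a short element, the cell cycle genes homology region (CHR), that is read by the MuvB complex with MYBL2 (B-MYB) and FOXM1, and for CCAAT boxes bound by NF-Y. Cisplatin crosslinks DNA, and cells with such lesions are known to slow in S phase and to arrest in G2. In a bulk library, fewer cells in G2 and M and less RNA per such cell cannot be told apart.

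Because the 38 genes are known for a shared promoter layout, the windows from 250 bases before to 50 bases after the start site were read from RefSeq for GRCh38.p14. Windows were matched for 32 members and not for AURKA, BIRC5, TTK, UBE2C, TPX2 and RACGAP1. The windows printed here belong to the 3 members with the smallest p among those lower under cisplatin (DLGAP5 at chr14:55191536-55191835, minus strand, HMMR at chr5:163460382-163460681, plus strand and CENPE at chr4:103198294-103198593, minus strand) and to 2 members that were higher (CDK1 at chr10:60778081-60778380, plus strand and PTTG1 at chr5:160421605-160421904, plus strand). They are printed 5′ to 3′ on the strand of the gene, and capitals mark the CHR (TTTGAA), its variant (TTTAAA), the CCAAT box and the E2F elements TTTGGCGC, TTTCGCGC and TTTCCCGC, each searched on both strands.
DLGAP5: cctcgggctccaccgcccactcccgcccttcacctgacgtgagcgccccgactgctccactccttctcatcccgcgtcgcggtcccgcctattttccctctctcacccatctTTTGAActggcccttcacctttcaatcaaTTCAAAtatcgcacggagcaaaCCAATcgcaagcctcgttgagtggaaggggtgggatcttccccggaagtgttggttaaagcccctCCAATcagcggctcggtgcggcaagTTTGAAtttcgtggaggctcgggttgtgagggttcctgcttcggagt
HMMR: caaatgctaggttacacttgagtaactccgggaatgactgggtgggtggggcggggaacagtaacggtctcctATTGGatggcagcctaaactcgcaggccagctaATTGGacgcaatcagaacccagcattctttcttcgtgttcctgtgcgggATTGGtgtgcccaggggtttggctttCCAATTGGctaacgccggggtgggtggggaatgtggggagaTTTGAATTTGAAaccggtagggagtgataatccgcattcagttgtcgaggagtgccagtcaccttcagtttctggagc
CENPE: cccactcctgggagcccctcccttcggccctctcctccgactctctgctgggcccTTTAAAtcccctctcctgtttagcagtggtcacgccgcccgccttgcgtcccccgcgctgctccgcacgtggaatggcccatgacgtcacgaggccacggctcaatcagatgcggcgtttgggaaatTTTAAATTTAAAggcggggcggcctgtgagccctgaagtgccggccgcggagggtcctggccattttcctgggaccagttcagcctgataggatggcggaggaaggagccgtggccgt
CDK1: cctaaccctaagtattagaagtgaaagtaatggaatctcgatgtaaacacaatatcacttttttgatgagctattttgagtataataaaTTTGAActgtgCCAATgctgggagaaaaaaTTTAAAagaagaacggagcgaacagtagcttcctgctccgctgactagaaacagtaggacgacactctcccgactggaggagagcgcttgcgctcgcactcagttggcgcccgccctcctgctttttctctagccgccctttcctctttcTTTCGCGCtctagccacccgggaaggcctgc
PTTG1: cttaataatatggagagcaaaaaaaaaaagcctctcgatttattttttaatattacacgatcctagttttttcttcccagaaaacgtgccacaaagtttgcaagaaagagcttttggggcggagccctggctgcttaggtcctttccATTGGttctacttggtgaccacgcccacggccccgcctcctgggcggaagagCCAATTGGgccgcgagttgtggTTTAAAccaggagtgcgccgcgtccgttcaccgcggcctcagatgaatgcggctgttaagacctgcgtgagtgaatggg

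The CHR was in 21 of the 32 windows, or 65.6%, beside 15.4% of the 27305 RefSeq windows of the same length and 8.95% of the 8333 windows whose gene was tested here. A CCAAT box was in 24 windows, or 75.0%, beside 35.7% of all windows, and 15 windows held at least 2 CCAAT boxes. The variant TTTAAA was in 13 windows, or 40.6%, beside 12.3% of all, and 20 windows held a CHR or its variant together with a CCAAT box. The E2F elements were in 3 windows, those of CDK1, CENPA and NUSAP1. CCAAT on opposite strands overlapped in HMMR and PTTG1, where the letters CCAATTGG count as 2 boxes. By response to cisplatin, the CHR was in 9 of the 14 matched members that were lower with cisplatin, in 2 of the 3 that were higher and in 10 of the 15 that were not called, and a CCAAT box was in 10, 3 and 11 of them. A match of letters is a description of the window and not a measured binding site.

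Total counts per library ran from 1510620 to 3517041, and summed counts on the 38 members from 4564 to 22564. Counts of single members ran from 6 for ESPL1 to 9285 for TOP2A, and ESPL1, TTK, CENPA, KIF20A, RACGAP1, BUB1 and KIF23 were under 20 counts in at least 1 library, which limits the precision of their values. The 2 mitochondrial rRNAs took 1.79 to 2.20% of the counts in untreated cells, 2.10 to 2.53% with Tranilast and 12.3 to 14.8% with Amphotericin B. They took 13.7, 5.61 and 3.41% in the 3 cisplatin libraries and 10.8, 12.9 and 3.61% in the 3 Telmisartan libraries. By a chi-square on counts over genes, cisplatin replicate 1 differed from replicates 2 and 3 by 26.4 and 43.1 per degree of freedom, and Telmisartan replicate 3 differed from replicates 1 and 2 by 37.8 and 44.1, while the pairs within the other 3 conditions stayed between 2.24 and 5.06. The members' counts against cisplatin are given below with and without the cisplatin and Telmisartan libraries above 10% mitochondrial rRNA. Values without those libraries are given for some members only, and the other gene lists were not refitted without them. The Amphotericin B libraries are all above it and were kept. Of the epithelial and ovarian carcinoma markers, KRT18 was at 84.0 to 209 CPM (counts scaled to a common library total with TMM factors, as for every CPM given here) and EPCAM at 11.2 to 43.4 CPM, while PAX8, WT1, MUC16 and MSLN were at 0 in 10 or more of the 15 libraries. The leukocyte marker PTPRC was at 64.5 to 75.4 CPM in untreated cells and at 2.45 to 22.1 CPM in the other conditions, and its part in any result was not tested. The leukocyte markers CD14 and CD68 stayed at or under 3.56 CPM in all 15 libraries. The epithelial list of 11 genes, 5 of them tested, summed to 147 to 253 CPM over the 15 libraries, the fibroblast list to 18.8 to 52.5 CPM and the endothelial list to at most 0.288 CPM.

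**Figure D1:**
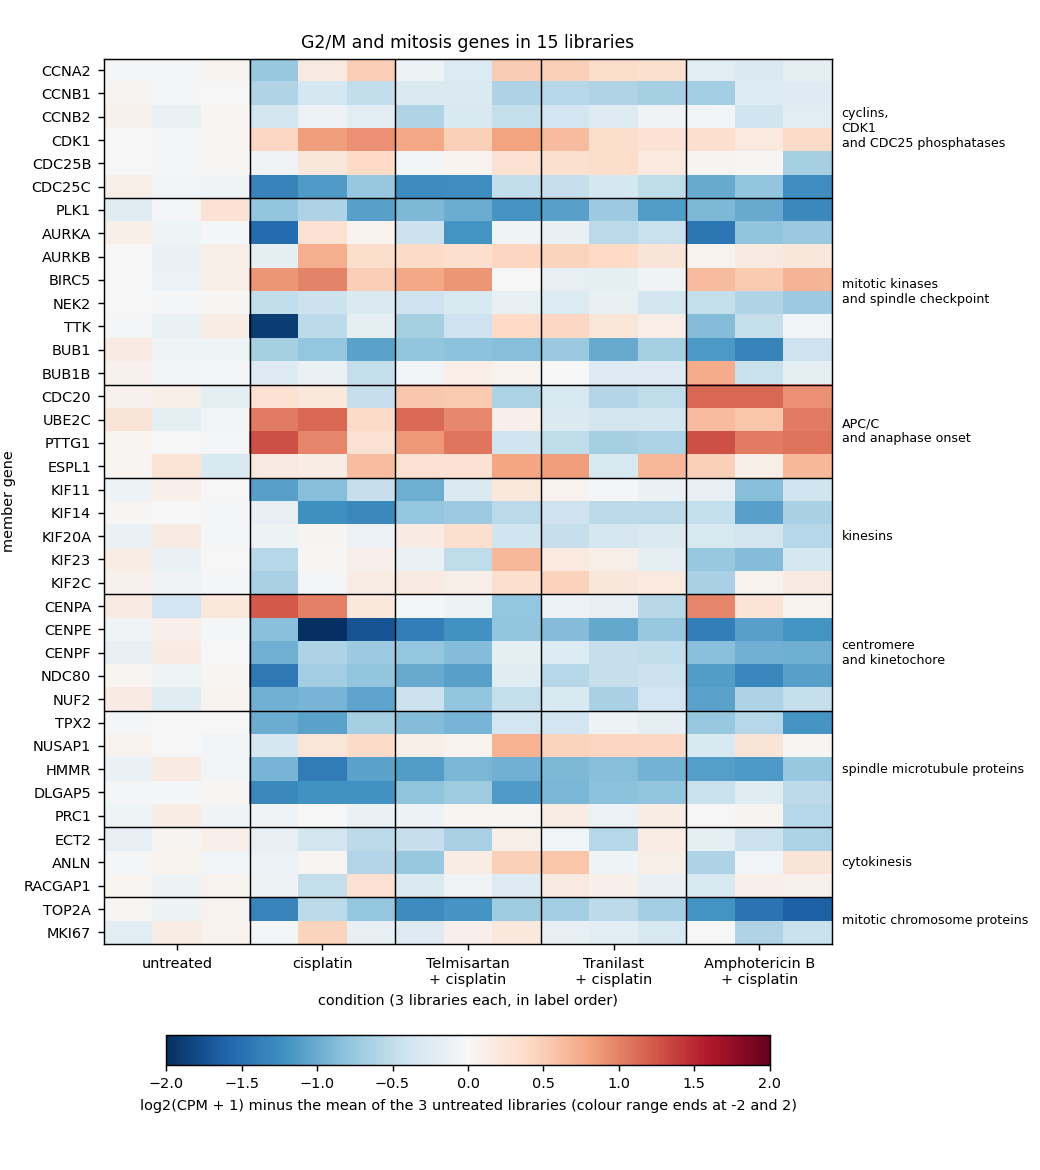
Level of each of the 38 members (rows, grouped by role) in each of 15 libraries (columns, 3 per condition), as log2(CPM + 1) minus the mean of the 3 untreated libraries; blue is lower and red is higher than untreated cells. The untreated columns are near white, CENPE, HMMR, DLGAP5, PLK1 and BUB1 are blue in all 12 treated columns, and PTTG1 and UBE2C are red in cisplatin and Amphotericin B columns but blue in the Tranilast columns.

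With cisplatin alone, 4 of the 5 kinetochore members and 3 of the 5 spindle members were lower than in untreated cells. The mitotic kinase CDK1 and the anaphase genes PTTG1 and UBE2C were higher. In the lists of other genes given below, more kinetochore and checkpoint genes were higher than lower. More of the other spindle, kinesin and cytokinesis genes were lower than higher. With cisplatin, 15 of the 38 members were lower than in untreated cells and 5 were higher, in the quasi-likelihood test of edgeR, with p adjusted by Benjamini-Hochberg over all 11113 genes and a threshold of 0.05. Every adjusted p below comes from that test unless another is named. Over all genes tested, 23.6% were lower and 21.1% higher, so the members' 39.5% lower lies above the background and their 13.2% higher lies below it. The median log2 fold change was -0.22 over the members and -0.01 over all genes. The 3 libraries of cisplatin were all below the 3 untreated libraries for 17 members and all above for 4, where 29.5% and 24% of all genes did so. The 38 members summed to 5445 to 5744 CPM in untreated cells and to 3691 to 4812 CPM with cisplatin, with no overlap, and TOP2A alone made up 20.3 to 41.1% of that sum over the 15 libraries.

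Among the cyclins, CDK1 and the CDC25 phosphatases, CDK1, the kinase that drives entry into mitosis, rose, while cyclin B1 and CDC25C fell. CDK1 (chromosome 10, 60778331 to 60794852 on GRCh38) was at 104, 101 and 107 CPM in untreated cells, 138, 186 and 197 with cisplatin, 178, 145 and 182 with Telmisartan, 162, 132 and 127 with Tranilast and 132, 119.5 and 136 with Amphotericin B. The 3 cisplatin libraries lay above all 3 untreated libraries, and the log2 fold change was 0.74 (SE 0.17, adjusted p = 0.00247). CDC25C, a phosphatase that activates CDK1, had a log2 fold change of -1.08 (SE 0.24, adjusted p = 0.00185), although its gene overlaps FAM53C on the opposite strand and the use of strand in the counting is not given in the sources used here. CCNB1 had -0.48 (SE 0.17, adjusted p = 0.0242), and it was not called under 4 of 24 alternative fits. CDC25B, a phosphatase active early in G2, was at 107, 103 and 108 CPM in untreated cells, 101, 125 and 140.2 with cisplatin, 102, 111 and 131 with Telmisartan, 133, 137 and 122 with Tranilast and 109.5, 107 and 66.3 with Amphotericin B, and its conditions overlapped. CCNA2 and CCNB2 had log2 fold changes of 0.07 and -0.24 and did not pass the test, nor did CDC25B at 0.21.

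Of the 8 mitotic kinases and checkpoint genes, PLK1, BUB1 and NEK2 fell and BIRC5 rose. PLK1, the Polo-like kinase that acts from mitotic entry to cytokinesis, was at 85.8, 98.1 and 123 CPM in untreated cells, 58.2, 65.7 and 47.3 with cisplatin, 54.1, 50.3 and 44.0 with Telmisartan, 47.3, 61.1 and 46.0 with Tranilast and 54.0, 49.7 and 41.0 with Amphotericin B. Its 12 treated libraries all lay below the 3 untreated libraries, and its log2 fold change under cisplatin was -0.85 (SE 0.20, adjusted p = 0.00236). BUB1, a kinase of the spindle checkpoint, had -0.86 (SE 0.23, adjusted p = 0.00655). NEK2, a centrosome kinase, was at 129, 125 and 131 CPM in untreated cells, 91.3, 94.7 and 105 with cisplatin, 95.9, 103 and 116 with Telmisartan, 106, 116 and 99.3 with Tranilast and 91.7, 84.2 and 77.5 with Amphotericin B. Its log2 fold change of -0.40 (SE 0.15, adjusted p = 0.0407) was not called under 13 of 24 alternative fits. BIRC5 (survivin), a subunit of the chromosomal passenger complex, was at 80.0, 73.1 and 86.0 CPM in untreated cells, 147, 158 and 113 with cisplatin, 137, 148 and 78.7 with Telmisartan, 71.1, 69.5 and 75.8 with Tranilast and 124, 115 and 128 with Amphotericin B. Its cisplatin libraries lay above its untreated libraries, with a log2 fold change of 0.80 (SE 0.21, adjusted p = 0.00491). AURKB, the kinase of the same complex, was at 186, 169 and 200.1 CPM in untreated cells, 164, 305 and 236 with cisplatin, 241, 233 and 249 with Telmisartan, 253, 244 and 221 with Tranilast and 193, 209 and 217 with Amphotericin B. Its cisplatin and untreated libraries overlapped, and its log2 fold change of 0.35 did not pass the test. AURKA, TTK and BUB1B had -0.19, -0.71 and -0.30, with adjusted p of 0.67, 0.112 and 0.351 by edgeR.

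Among the genes of anaphase onset, PTTG1 and UBE2C rose with cisplatin. PTTG1 (chromosome 5, 160421822 to 160428744 on GRCh38), which encodes securin, was at 173, 170.1 and 164 CPM in untreated cells, 416, 334 and 208 with cisplatin, 310.3, 355 and 128 with Telmisartan, 118, 106 and 109 with Tranilast and 412, 346 and 361 with Amphotericin B. The cisplatin libraries all lay above the untreated ones but spread widely, and the library with the most mitochondrial rRNA had the highest value and the one with the least the lowest. The log2 fold change of PTTG1 was 0.92 (SE 0.29, adjusted p = 0.0151), and with that share as a covariate it was 0.25 with an adjusted p of 0.25. Without cisplatin replicate 1 and the 2 Telmisartan libraries above 10% it was 0.65 with an adjusted p of 0.000921. UBE2C (chromosome 20, 45812576 to 45816957), which hands ubiquitin to the APC/C, was at 112, 80.9 and 89.4 CPM in untreated cells, 193, 208 and 122 with cisplatin, 205, 182 and 100.2 with Telmisartan, 75.9, 72.0 and 72.0 with Tranilast and 145, 137 and 192 with Amphotericin B. Its log2 fold change was 0.89 (SE 0.25, adjusted p = 0.00793), and 0.48 with an adjusted p of 0.0465 with the covariate. Cisplatin libraries (3.41 to 13.7%) and untreated ones (1.79 to 2.20%) did not overlap in mitochondrial rRNA share. The covariate fits of PTTG1 and UBE2C thus cannot separate that share from cisplatin. Without the libraries above 10%, UBE2C was at 0.78 with an adjusted p of 0.000614 and BIRC5 at 0.73 with an adjusted p of 0.000201. The pseudogene copies of PTTG1 and UBE2C named in the annotation had at most 1 count in a library. CDC20, the activator of the APC/C at anaphase, was at 52.0, 53.2 and 42.5 CPM in untreated cells, 61.0, 56.9 and 35.3 with cisplatin, 72.0, 70.7 and 31.4 with Telmisartan, 39.1, 32.4 and 34.3 with Tranilast and 110.2, 109.9 and 93.2 with Amphotericin B, and its cisplatin libraries overlapped the untreated ones, with a log2 fold change of 0.05. ESPL1, which encodes separase, had 0.39 on few counts, with an adjusted p of 0.447 by edgeR.

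Of the 5 centromere and kinetochore genes, 4 fell and CENPA rose. CENPE (chromosome 4, 103105806 to 103198409 on GRCh38), a kinesin that carries chromosomes to the spindle equator, was at 143, 162 and 149 CPM in untreated cells, 84.0, 36.3 and 44.9 with cisplatin, 57.2, 64.6 and 87.0 with Telmisartan, 82.6, 73.9 and 89.1 with Tranilast and 57.6, 70.6 and 65.6 with Amphotericin B. All 12 treated libraries lay below the 3 untreated libraries, and the log2 fold change under cisplatin was -1.47 (SE 0.25, adjusted p = 0.000171). NDC80 and NUF2 encode partners in the complex that grips microtubule ends. NDC80 was at 137, 125 and 136 CPM in untreated cells, 48.7, 81.4 and 76.7 with cisplatin, 65.8, 61.9 and 111 with Telmisartan, 89.3, 96.5 and 98.2 with Tranilast and 60.4, 52.9 and 61.9 with Amphotericin B, with a log2 fold change under cisplatin of -0.94 (SE 0.22, adjusted p = 0.00259), and NUF2 had -1.02 (SE 0.20, adjusted p = 0.000715). CENPF, a large protein of the outer kinetochore, was at 267, 337 and 300.4 CPM in untreated cells, 154, 196 and 182 with cisplatin, 175, 164 and 265 with Telmisartan, 249, 219 and 213 with Tranilast and 168, 154 and 152 with Amphotericin B, with -0.76 (SE 0.19, adjusted p = 0.00363). CENPA, the histone variant that marks centromeres, had 0.90 (SE 0.35, adjusted p = 0.0416) on 11 to 36 counts, was not called under 13 of 24 alternative fits, and shares its strand with the overlapping gene SLC35F6.

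Spindle genes fell in 3 of 5 cases. DLGAP5 (chromosome 14, 55148112 to 55191678 on GRCh38), which bundles kinetochore microtubules, was at 88.0, 88.3 and 92.2 CPM in untreated cells, 35.8, 38.3 and 38.1 with cisplatin, 50.5, 54.1 and 40.5 with Telmisartan, 47.3, 50.4 and 51.5 with Tranilast and 65.4, 75.4 and 61.9 with Amphotericin B. The cisplatin libraries lay close together and below every other library, and the log2 fold change was -1.26 (SE 0.17, adjusted p = 2.63e-05), the smallest p of the 38 members. HMMR, a microtubule-bound protein of the spindle poles, was at 71.1, 88.0 and 75.1 CPM in untreated cells, 40.3, 28.9 and 36.5 with cisplatin, 35.2, 40.9 and 39.4 with Telmisartan, 41.3, 42.8 and 39.7 with Tranilast and 35.6, 34.5 and 45.5 with Amphotericin B, and its 12 treated libraries lay below the 3 untreated libraries. Its log2 fold change was -1.15 (SE 0.18, adjusted p = 0.000115). TPX2, which activates AURKA on the spindle, was at 334, 342 and 339 CPM in untreated cells, 169, 161 and 214 with cisplatin, 186, 176 and 259.6 with Telmisartan, 258, 315 and 298 with Tranilast and 201, 229 and 148 with Amphotericin B, with -0.90 (SE 0.20, adjusted p = 0.00153) under cisplatin. NUSAP1, which binds and stabilises spindle microtubules, was at 117, 110.5 and 107 CPM in untreated cells, 87.9, 132 and 146 with cisplatin, 121, 117 and 181 with Telmisartan, 152, 150.5 and 148 with Tranilast and 90.3, 133 and 113 with Amphotericin B. Its cisplatin and untreated libraries overlapped, with a log2 fold change of 0.13, and PRC1, which bundles microtubules of the central spindle, had -0.07.

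Of the kinesins, KIF11 and KIF14 fell. KIF11, the motor that pushes spindle poles apart, was at 54.5, 62.4 and 58.6 CPM in untreated cells, 26.9, 31.9 and 42.1 with cisplatin, 29.1, 47.5 and 67.4 with Telmisartan, 61.4, 57.0 and 53.3 with Tranilast and 51.9, 32.1 and 44.0 with Amphotericin B, with a log2 fold change under cisplatin of -0.79 (SE 0.26, adjusted p = 0.0191), and KIF14 had -0.84 (SE 0.25, adjusted p = 0.0133). Each lost its call under 3 of 24 alternative fits, among them without cisplatin replicate 2. KIF2C, a microtubule depolymerase, was at 45.6, 40.9 and 42.3 CPM in untreated cells, 26.9, 41.7 and 47.7 with cisplatin, 48.5, 46.4 and 54.5 with Telmisartan, 59.2, 50.4 and 49.2 with Tranilast and 27.0, 44.9 and 48.4 with Amphotericin B. It, KIF20A and KIF23 had log2 fold changes of -0.14, -0.06 and -0.12 and did not pass the test. KIF20A overlaps BRD8 and CDC23 on the opposite strand.

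TOP2A, which untangles sister chromatids, was at 2275, 2093 and 2364 CPM in untreated cells, 898, 1537 and 1309 with cisplatin, 942, 984 and 1366 with Telmisartan, 1389, 1565 and 1395 with Tranilast and 978, 806 and 721 with Amphotericin B. It fell in every treated library below the untreated ones, with a log2 fold change under cisplatin of -0.85 (SE 0.22, adjusted p = 0.00551). MKI67, the coat protein of mitotic chromosomes used as a marker of dividing cells, was at 151, 193 and 183 CPM in untreated cells, 169.7, 239 and 155 with cisplatin, 146, 188 and 202 with Telmisartan, 156, 149.6 and 140.4 with Tranilast and 175, 115 and 128 with Amphotericin B. Its cisplatin and untreated libraries overlapped, with a log2 fold change of 0.10 and an adjusted p of 0.724 by edgeR. None of the 3 cytokinesis genes passed the test. ANLN, which ties actin to the cleavage furrow, was at 26.1, 28.2 and 25.7 CPM in untreated cells, 24.6, 27.5 and 17.5 with cisplatin, 15.3, 29.8 and 37.4 with Telmisartan, 39.4, 25.1 and 28.9 with Tranilast and 17.1, 25.7 and 32.0 with Amphotericin B. ECT2, the activator of RhoA at the furrow, was at 27.4, 31.9 and 33.1 CPM in untreated cells, 27.4, 23.5 and 21.0 with cisplatin, 21.9, 19.3 and 33.3 with Telmisartan, 29.4, 20.4 and 34.1 with Tranilast and 27.0, 22.5 and 19.4 with Amphotericin B. Cisplatin and untreated libraries overlapped for both, with log2 fold changes of -0.21 and -0.37, and RACGAP1, the partner of ECT2, had -0.05. ANLN overlaps KIAA0895 on the opposite strand.

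**Figure D2:**
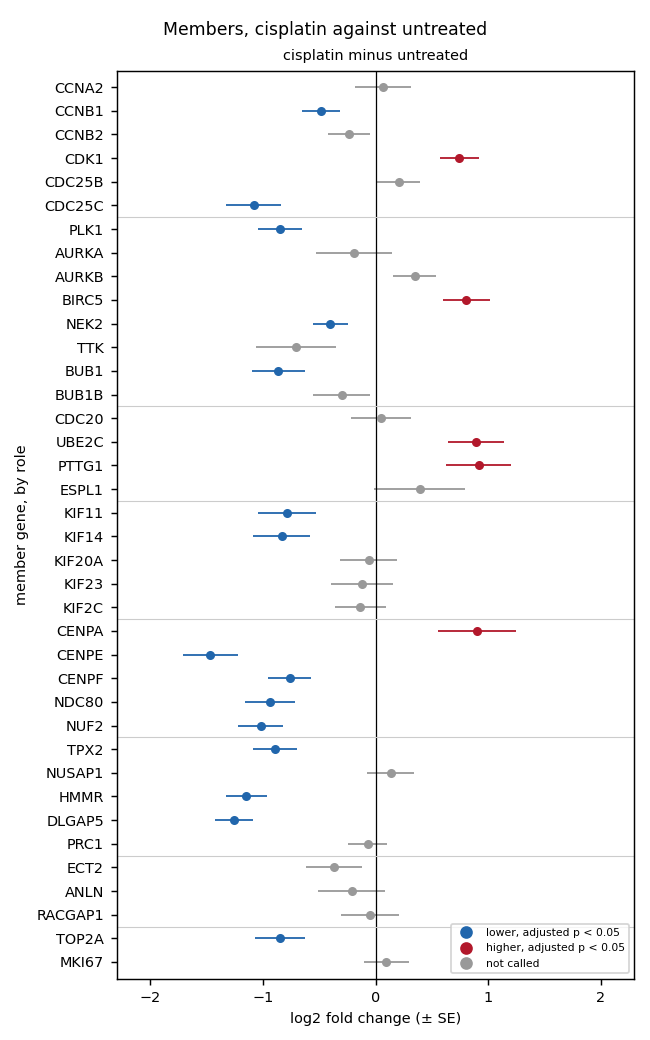
Log2 fold change of cisplatin against untreated cells (x axis, point with SE) for the 38 members (y axis, by role), with blue for lower and red for higher at an adjusted p under 0.05. Of the kinetochore members, 4 are blue and CENPA is red, the APC/C members lie at or right of 0, and the 3 cytokinesis members are grey.

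Of the 20 members called between cisplatin and untreated cells, 11 kept their call and direction under all 24 alternative fits, all of them lower: CDC25C, PLK1, BUB1, CENPE, CENPF, NDC80, NUF2, TPX2, HMMR, DLGAP5 and TOP2A. The 5 higher calls depended on the scaling of the libraries. With library sizes alone in place of TMM factors, the median of all genes shifted from -0.01 to -0.36, and none of the 5 passed, with CDK1 at 0.42 with an adjusted p of 0.201 and BIRC5 at 0.43 with an adjusted p of 0.0733. Without cisplatin replicate 1 and the 2 Telmisartan libraries, 15 members were lower and 5 higher, with CENPA no longer among them.

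Members that fell and members that rose are set beside the span of their genes here. In GENCODE 29, the 15 lower members spanned a median of 45.1 kb, from 11.2 kb for CCNB1 to 92.6 kb for CENPE, and the 5 higher members a median of 11.5 kb, from 4.38 kb for UBE2C to 36.8 kb for CENPA. The same order held for the longest transcript, with medians of 3.58 and 1.45 kb. Among all genes tested, the 2595 lower genes with an annotated position spanned a median of 93.3 kb, the 2314 higher ones 11.0 kb and the 6055 not called 28.5 kb. The order of the medians, lower genes longest and higher genes shortest, was the one found over all genes. These medians are given as a description, with no test, and the part of gene length in the results was not tested.

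With Tranilast before cisplatin, the anaphase genes PTTG1 and UBE2C, survivin and the centromere histone CENPA were lower than with cisplatin alone, and the spindle genes TPX2 and KIF11 were higher. Against the same 3 cisplatin libraries, 4 members were thus lower and 2 higher, while 11.6% of all genes were lower and 10.5% higher. The members' share of 10.5% lower was close to that of all genes. Their 5.26% higher lay under it, on 2 members. The 3 Tranilast libraries lay below all 3 cisplatin libraries for 5 members and above them for 10, where 18.9% and 21.4% of all genes did so, and an unadjusted p under 0.05 gave 4 lower and 7 higher, where 18.7% and 18.3% did so. This comparison shares its cisplatin libraries with the one against untreated cells, where PTTG1, UBE2C, BIRC5 and CENPA had 0.92, 0.89, 0.80 and 0.90 and TPX2 and KIF11 -0.90 and -0.79. PTTG1 was at 416, 334 and 208 CPM with cisplatin and 118, 106 and 109 CPM with Tranilast, a log2 fold change of -1.52 (SE 0.29, adjusted p = 0.00298). UBE2C was at 193, 208 and 122 CPM and 75.9, 72.0 and 72.0 CPM, with -1.25 (SE 0.25, adjusted p = 0.00358). The Tranilast libraries of both genes lay below the lowest cisplatin library, which had 3.41% mitochondrial rRNA beside their 2.10 to 2.53%. BIRC5 had -0.95 (SE 0.21, adjusted p = 0.00545) and CENPA -1.26 (SE 0.36, adjusted p = 0.0186). TPX2 rose from 169, 161 and 214 CPM to 258, 315 and 298 CPM, with 0.68 (SE 0.20, adjusted p = 0.0208), and KIF11 from 26.9, 31.9 and 42.1 CPM to 61.4, 57.0 and 53.3 CPM, with 0.75 (SE 0.26, adjusted p = 0.0427).

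The calls of PTTG1 and UBE2C under Tranilast held under all 24 alternative fits, with log2 fold changes of -0.88 and -0.86 with the mitochondrial rRNA share as a covariate. BIRC5 was at -0.48 with an adjusted p of 0.0633 with library sizes alone. With the covariate, CENPA was at -0.79 with an adjusted p of 0.115, TPX2 at 0.43 with an adjusted p of 0.0513 and KIF11 at 0.44 with an adjusted p of 0.146. Tranilast libraries (2.10 to 2.53%) and cisplatin ones (3.41 to 13.7%) did not overlap in mitochondrial rRNA share. Calls kept or lost with the covariate thus cannot separate that share from the condition. Without the libraries above 10%, 6 members were lower and 6 higher, where 1961 and 2101 of 12183 genes were, a share of all genes close to that of the members, and the higher ones then held CENPE, at 1.03 with an adjusted p of 3.48e-05, KIF14, at 0.81 with an adjusted p of 0.00303, TTK and NUF2. With library sizes alone, the median of all genes was at 0.46 and 2 members were lower and 10 higher, and the share of all genes called in that fit is not given here. TTK and NUF2 had log2 fold changes of 0.97 and 0.56, with adjusted p of 0.0548 and 0.0548 in the main edgeR test. HMMR, CENPF, PLK1 and TOP2A, lowered by cisplatin, had 0.23, 0.35, -0.15 and 0.22 with Tranilast against cisplatin and did not pass the test.

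**Figure D3:**
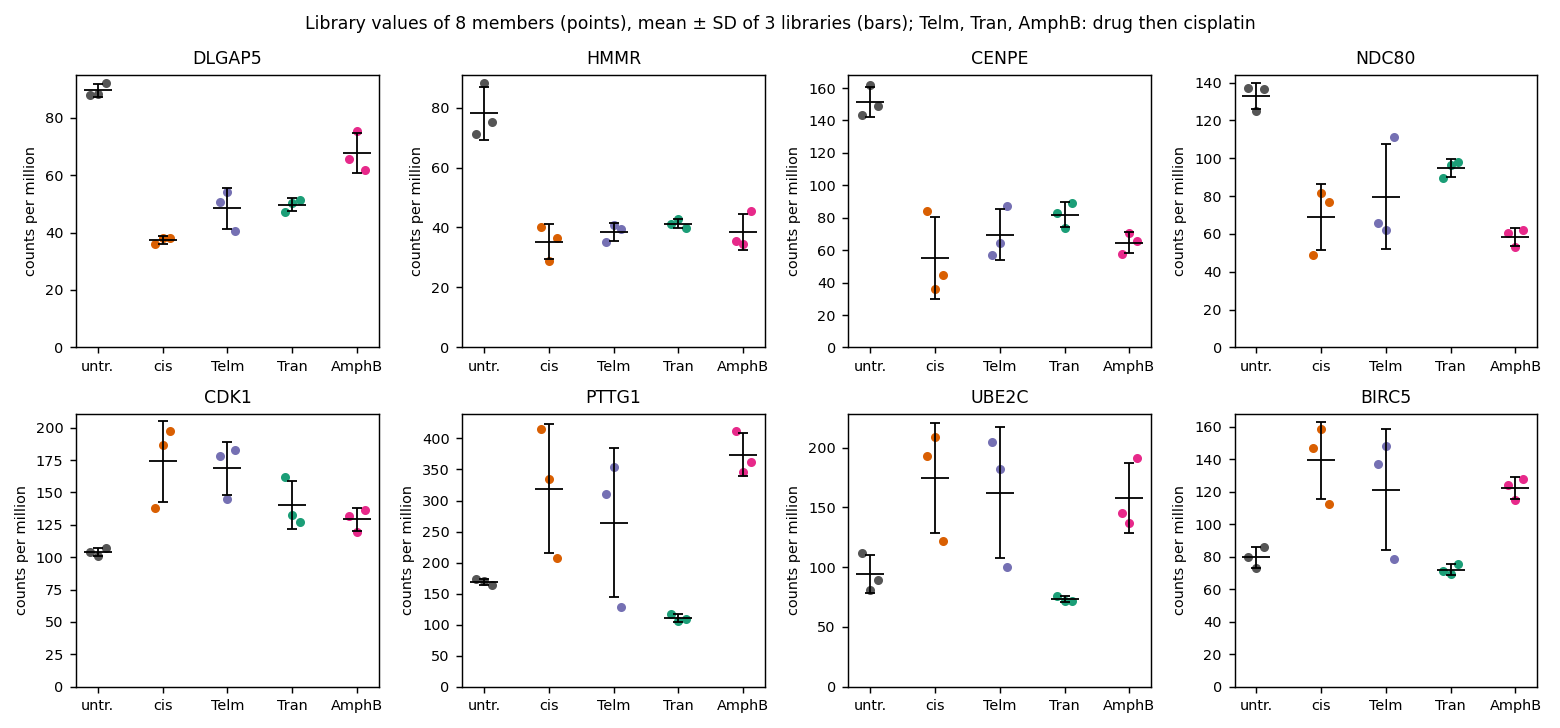
CPM of 8 members in each library (points, coloured by condition), with the mean and SD of 3 libraries (black bars); every y axis starts at 0. PTTG1 was at 106 to 118 CPM with Tranilast, below its 164 to 173 CPM in untreated cells and its 208 to 416 CPM with cisplatin, while DLGAP5 is lowest with cisplatin alone.

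With Amphotericin B before cisplatin, the spindle gene DLGAP5 and the APC/C activator CDC20 were higher than with cisplatin alone. No member was lower and these 2 were higher, where 9.01% of all genes were lower and 4.21% higher. At an unadjusted p under 0.05, 3 members were lower and 2 higher, where 18.8% and 12.7% of all genes were, and DESeq2 and edgeR's likelihood ratio test also called none lower. DLGAP5 was at 35.8, 38.3 and 38.1 CPM with cisplatin and 65.4, 75.4 and 61.9 CPM with Amphotericin B, a log2 fold change of 0.85 (SE 0.17, adjusted p = 0.00722), and it lay between the cisplatin and untreated levels. CDC20 was at 61.0, 56.9 and 35.3 CPM and 110.2, 109.9 and 93.2 CPM, with 1.04 (SE 0.27, adjusted p = 0.0197), above the untreated level of 52.0, 53.2 and 42.5 CPM. With the mitochondrial rRNA share as a covariate, DLGAP5 was at 0.76 with an adjusted p of 0.0283 and CDC20 at 0.53 with an adjusted p of 0.171. In the fit of only the 6 libraries compared neither passed, with 0.88 with an adjusted p of 0.0684 for DLGAP5 and 1.06 with an adjusted p of 0.0588 for CDC20. Without the libraries above 10% in the cisplatin and Telmisartan conditions, 8 members were lower, TOP2A among them at -0.74 with an adjusted p of 0.000135 and AURKA at -1.14 with an adjusted p of 1.57e-05, and 5 were higher, where 2441 and 2494 of 12183 genes were. Leaving out cisplatin replicate 1 alone gave 4 lower and 4 higher, where 1949 and 1885 of 11332 genes were, so the counts depended on that library. In both fits the cisplatin libraries left (5.61 and 3.41%) and the Amphotericin B ones (12.3 to 14.8%) did not overlap in mitochondrial rRNA share. That share and the condition cannot be told apart there.

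Telmisartan against cisplatin had no member past the threshold in edgeR's quasi-likelihood test, where 0% of the 11113 genes were lower and 0% higher. At an unadjusted p under 0.05, 1 member was lower and 1 higher, where 5.33% and 5.02% of all genes were, and DESeq2 and edgeR's likelihood ratio test also called none. The members' log2 fold changes ran from -1.29 for CENPA to 0.59 for TTK with a median of 0.10, the 3 libraries of each condition did not overlap for 1 lower and 3 higher members, where 4.89% and 4.38% of all genes did not, and the smallest adjusted p was 0.302, for CENPA. The spread within the 2 conditions was wide, with a median coefficient of variation over members of 22.2% in both, beside 7.56% in untreated cells, 8.88% with Tranilast and 16.7% with Amphotericin B. PTTG1 was at 310.3, 355 and 128 CPM with Telmisartan, and replicate 3, with 3.61% mitochondrial rRNA, lay below the untreated libraries while replicates 1 and 2 lay above them. UBE2C at 205, 182 and 100.2 CPM and BIRC5 at 137, 148 and 78.7 CPM had their lowest value in the same library, where CENPF, at 175, 164 and 265 CPM, NDC80, at 65.8, 61.9 and 111 CPM, and TPX2, at 186, 176 and 259.6 CPM, had their highest. When only that Telmisartan library and cisplatin replicates 2 and 3 were left, 3 members were lower (PTTG1, BIRC5 and CENPA) and 2 higher (CENPE and KIF11), where 481 and 484 of 12183 genes were, in a fit where the lone library is assumed to vary like the other conditions.

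**Figure D4:**
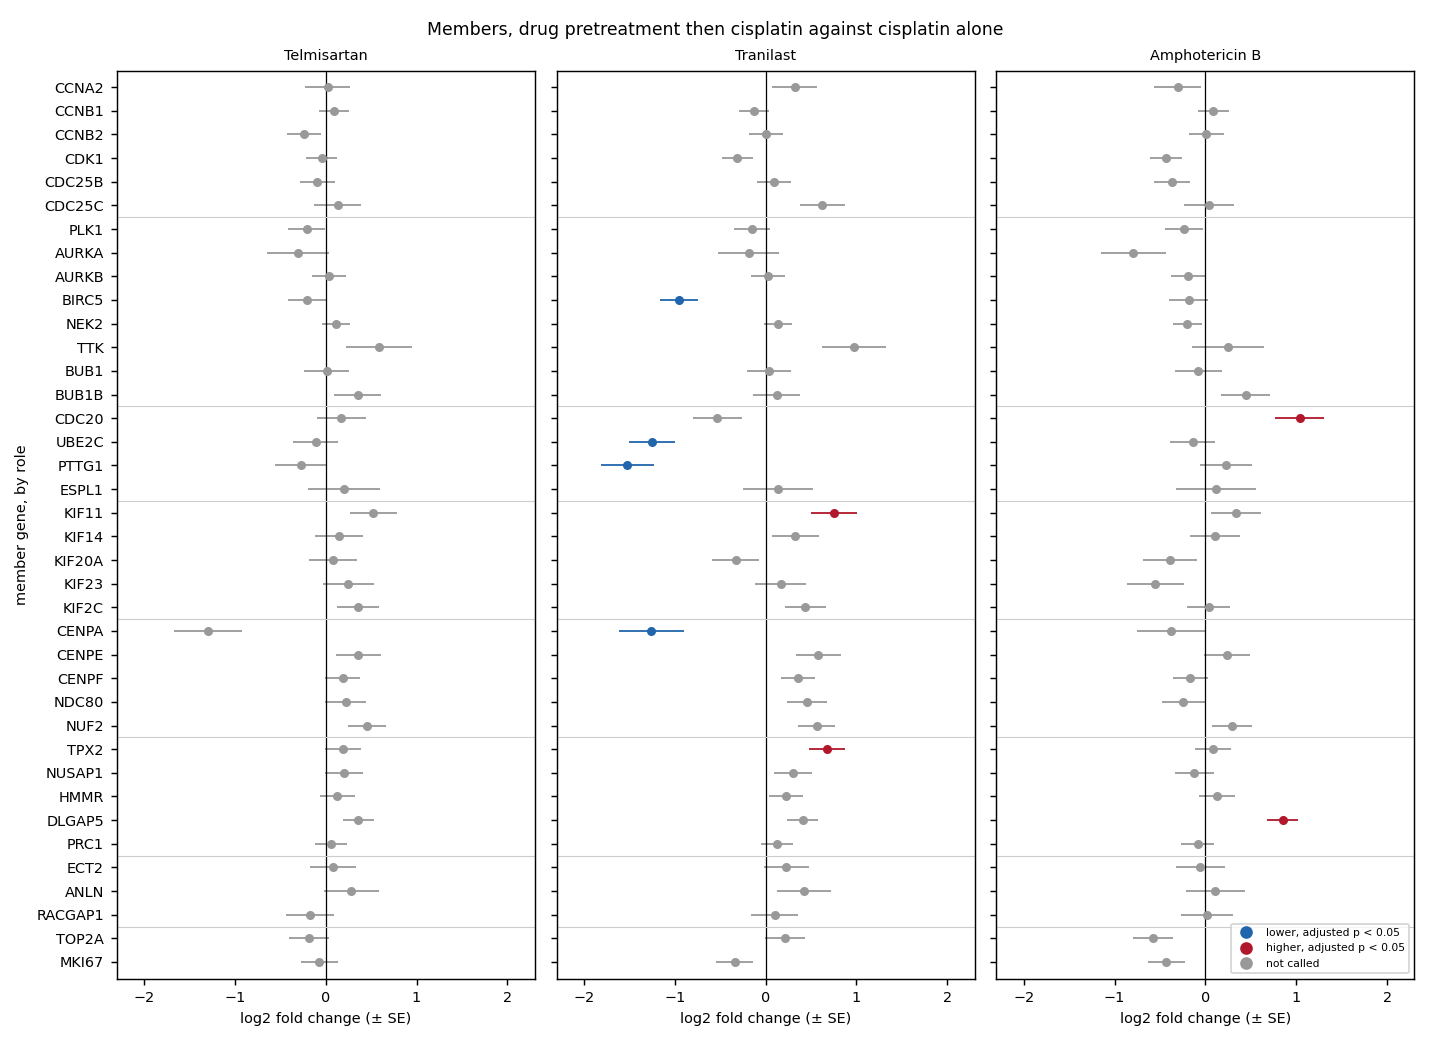
Log2 fold change (x axis, point with SE) of each drug combination against the same 3 cisplatin libraries for the 38 members (y axis, by role), with blue for lower and red for higher at an adjusted p under 0.05. No member is coloured for Telmisartan, 6 are for Tranilast, and DLGAP5 and CDC20 are for Amphotericin B.

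Against untreated cells, which all 4 comparisons share, the drug combinations gave the following counts. Shares of all genes in this paragraph belong to the main edgeR test. Those of the other fits are not given here, so member counts from other fits show no excess or lack of members. With Tranilast, 6 members were lower and none higher, where 5.66% of all genes were lower and 2.44% higher. That count moved with the fit, to 17 lower and 6 higher with only the 6 libraries compared, 13 and 3 with the mitochondrial rRNA covariate, 14 and 4 without the libraries above 10%, and 3 lower without any 1 untreated or Tranilast library. At an unadjusted p under 0.05, 1 member was higher with Tranilast, where 8.67% of all genes were, and DESeq2 and edgeR's likelihood ratio test called none. With Telmisartan, 12 were lower and 3 higher, where 15.8% and 12.8% of all genes were. Without Telmisartan replicate 1, or without replicate 2, there were 7 lower and 1 higher, without untreated replicate 3 there were 8 lower and 1 higher, without untreated replicate 2 there was 1 higher, and without the libraries above 10% there were 8 lower and 4 higher. Before adjustment, a p under 0.05 put 4 members higher with Telmisartan, where 19% of all genes were. With Amphotericin B, 13 were lower and 4 higher, where 23.3% and 17.6% of all genes were. PLK1, BUB1, CENPE and HMMR were lower in all 4 comparisons with untreated cells, and genes lower in all 4 were not counted over all genes. With Tranilast, BUB1 was not called under 8 and CENPE under 7 of 24 alternative fits, among them those without any 1 untreated or Tranilast library, while PLK1 and HMMR were called under all 24. The log2 fold changes of PLK1 were -0.85 with cisplatin, -1.06 with Telmisartan, -0.99 with Tranilast and -1.09 with Amphotericin B, with adjusted p of at most 0.00387 in the edgeR test. For HMMR they were -1.15, -1.02, -0.92 and -1.02 in the same order. DLGAP5 had -1.26, -0.90, -0.85 and -0.41, the last with an adjusted p of 0.0573. The median over the members was -0.25 with Telmisartan and -0.25 with Tranilast, beside -0.03 and -0.01 over all genes. With Amphotericin B it was -0.40 beside -0.19 over all genes, so that the values of that comparison are to be read against a shift of all genes downward.

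Members were higher than in untreated cells with Telmisartan and Amphotericin B. CDK1 rose with Telmisartan, at 0.70 (SE 0.17, adjusted p = 0.00663), and had 0.43 with Tranilast and 0.31 with Amphotericin B, short of the threshold. UBE2C and BIRC5 were higher with cisplatin, Telmisartan and Amphotericin B, and with Tranilast they had log2 fold changes of -0.36 and -0.14 that did not pass. With Telmisartan, BIRC5 fell short under 12 of 24 alternative fits and changed sign under another, at -0.02 with an adjusted p of 0.956 without the libraries above 10%, and UBE2C fell short under 7, with 0.09 with an adjusted p of 0.813 in that fit. With Amphotericin B, CDC20 and PTTG1 also rose, at 1.09 (SE 0.26, adjusted p = 0.00372) and 1.14 (SE 0.29, adjusted p = 0.00451). With the mitochondrial rRNA share as a covariate, the higher calls of Amphotericin B against untreated cells were lost for PTTG1, at -0.17 with an adjusted p of 0.698, UBE2C, at -0.10 with an adjusted p of 0.863, BIRC5, at -0.06 with an adjusted p of 0.911, and CDC20, at 0.08 with an adjusted p of 0.901. The Amphotericin B libraries (12.3 to 14.8%) and the untreated ones (1.79 to 2.20%) do not overlap in that share, so that it and the condition cannot be told apart in this comparison. TOP2A fell the furthest with Amphotericin B, to 978, 806 and 721 CPM, at -1.43 (SE 0.23, adjusted p = 0.000183), followed by CENPE at -1.23 (SE 0.25, adjusted p = 0.00103) and NDC80 at -1.18 (SE 0.23, adjusted p = 0.000783). With the covariate, TOP2A and CENPE kept their calls, at -0.72 with an adjusted p of 0.0242 and -1.52 with an adjusted p of 0.00129, while NDC80 was at -0.26 with an adjusted p of 0.51, and CENPF, TPX2, NUF2, NEK2 and CDC25C also lost theirs. AURKA was lower than in untreated cells with Amphotericin B, at -0.98 (SE 0.35, adjusted p = 0.0332), and fell short of the threshold in the other 3 comparisons, with -0.19 with cisplatin, -0.49 with Telmisartan and -0.37 with Tranilast. Its call was lost without any 1 untreated or Amphotericin B library and with RLE factors, and with the covariate it was at 0.53 with an adjusted p of 0.311. Whether it differed between Amphotericin B and cisplatin was tested directly, at -0.79 (SE 0.36, adjusted p = 0.136), and it did not pass. Its raw counts were 66, 273 and 288 with cisplatin and 55, 77 and 87 with Amphotericin B, so cisplatin replicate 1 lay apart. The fit without the libraries above 10% mitochondrial rRNA gave a larger fall, as stated with the comparison against cisplatin.

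The combinations were also compared with each other. Tranilast against Amphotericin B had 5 members lower and 4 higher, where 16.4% of all genes were lower and 19.7% higher. PTTG1, at -1.75 (SE 0.29, adjusted p = 0.00105), CDC20, at -1.57 (SE 0.27, adjusted p = 0.00106), UBE2C, at -1.11 (SE 0.25, adjusted p = 0.00372), BIRC5, at -0.76, and DLGAP5, at -0.44, were lower, where the median of all genes was 0.15. TOP2A, at 0.79 (SE 0.22, adjusted p = 0.0115), NDC80, at 0.70 (SE 0.23, adjusted p = 0.0253), TPX2, at 0.59 (SE 0.20, adjusted p = 0.0266), and CENPF, at 0.52, were higher. DLGAP5 fell short under 15 and CENPF under 10 of 24 alternative fits, and each changed sign under another. With the covariate no member was called in this comparison. The Tranilast libraries (2.10 to 2.53%) and the Amphotericin B ones (12.3 to 14.8%) did not overlap in mitochondrial rRNA share. That share and the condition cannot be told apart here, so the covariate fit does not decide these calls. With library sizes alone 2 members were lower and 28 higher, with the median of all genes at 0.81, and the share of all genes called in that fit is not given here. Tranilast against Telmisartan had 2 lower, UBE2C at -1.14 (SE 0.25, adjusted p = 0.0412) and PTTG1 at -1.25 (SE 0.29, adjusted p = 0.0437), and none higher, where 1.75% and 0.585% of all genes were called. Each lost its call under 15 of 24 alternative fits, and without the libraries above 10% they were -0.45 with an adjusted p of 0.536 for UBE2C and -0.21 with an adjusted p of 0.791 for PTTG1. At an unadjusted p under 0.05, 1 member was higher with Tranilast than with Telmisartan, where 9.98% of all genes were, and DESeq2 called none. Telmisartan against Amphotericin B had 0 of 38 members called, as of all genes (0%), with 3 lower and 2 higher at an unadjusted p under 0.05, where 7.49% and 13.1% of all genes were, and none by DESeq2 or edgeR's likelihood ratio test.

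**Figure D5:**
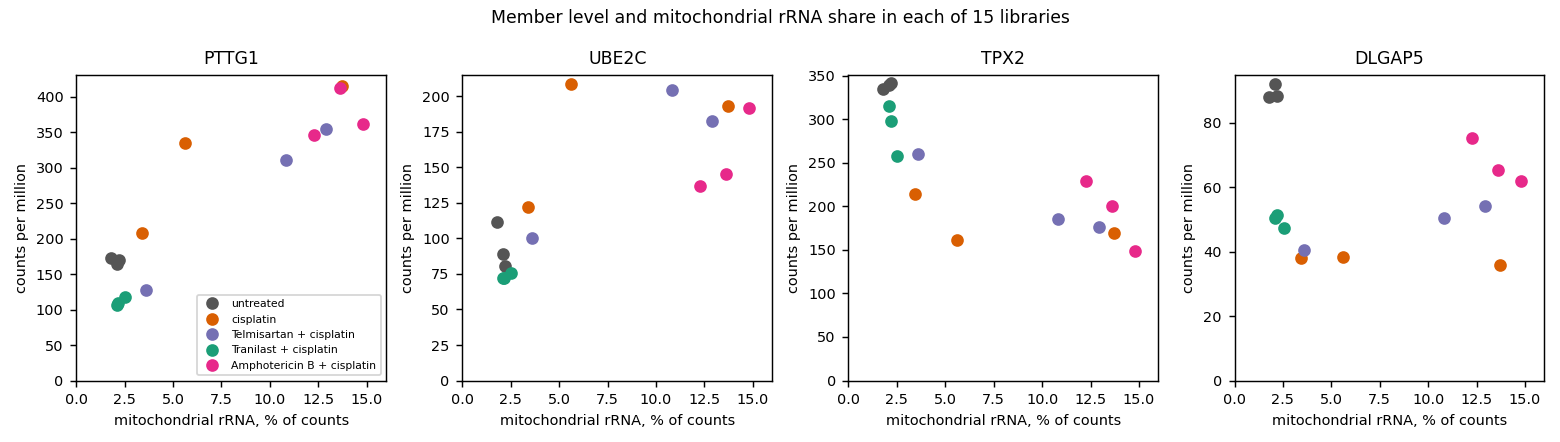
CPM of PTTG1, UBE2C, TPX2 and DLGAP5 (y axis, from 0) against the share of counts on mitochondrial rRNA (x axis, %) in each of the 15 libraries, coloured by condition. PTTG1 is at 208 CPM and 416 CPM in the cisplatin libraries with 3.41% and 13.7%, and DLGAP5 stays at 35.8 to 38.3 CPM over the same libraries.

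Within conditions, PTTG1, UBE2C and BIRC5 had their lowest cisplatin value and their lowest Telmisartan value in replicate 3, the library of each condition with the least mitochondrial rRNA, and the part of that share in these results was not tested beyond the fits with the covariate and without the libraries above 10%. DLGAP5 stayed between 35.8 and 38.3 CPM over the 3 cisplatin libraries. Of the 38 members, 18 had their lowest cisplatin value in replicate 1 and 17 their highest in replicate 2. With Telmisartan, 22 had their highest value in replicate 3, and with Tranilast 23 had it in replicate 1. The order of libraries was counted for the members only, so it is not known to differ from that of all genes. Of the 38 members, 16 were called in none of the 10 comparisons, among them AURKB, MKI67, CCNA2, CCNB2, NUSAP1 and all 3 cytokinesis genes. Genes called in none of the 10 were not counted over all genes, so the 16 show no excess or lack.

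Other genes of the cell cycle were counted from lists of their own, and their counts with cisplatin stand beside the 23.6% lower and 21.1% higher of all genes. The calls of these other genes were not examined under any of the 24 alternative fits. Of 30 G1/S and DNA replication genes, cisplatin raised 25 and lowered none, with a median log2 fold change of 1.20 beside -0.22 over the 38 members. At an unadjusted p under 0.05, none of the 30 was lower and 26 were higher. UNG, which removes uracil from DNA, had 2.44 (SE 0.21, adjusted p = 1.23e-06), CDT1, which licenses replication origins, 2.03 (SE 0.20, adjusted p = 4.06e-06), and CCNE1 (cyclin E1) 2.20 (SE 0.28, adjusted p = 1.95e-05). CCNE1 was at 18.8, 17.3 and 16.8 CPM in untreated cells and 50.4, 115 and 77.4 CPM with cisplatin. The same 30 genes had 22 higher with Tranilast, 24 with Telmisartan and 21 with Amphotericin B against untreated cells, and none lower. Of 16 condensin and cohesin genes, which fold and hold sister chromatids, cisplatin lowered 9 and raised 1, with STAG1 at -2.54 (SE 0.38, adjusted p = 7.33e-05) and STAG2 at -1.46 (SE 0.25, adjusted p = 0.000174). With Tranilast, 7 of the 16 were higher than with cisplatin and none lower, where 10.5% and 11.6% of all genes were.

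Of 29 other kinetochore and checkpoint genes, 5 were lower and 9 higher with cisplatin, with DSN1 at 1.73 and ZWINT at 1.56, both past the threshold. Of 21 tested spindle, kinesin and cytokinesis genes outside the 38, 8 were lower, among them CKAP5 at -1.31 and KIF4A at -1.48, and 5 were higher. Of 15 tested APC/C subunits and inhibitors, CDC27 was lower at -1.28 and 5 were higher, among them FBXO5 (EMI1), an inhibitor of the APC/C, at 2.09 (SE 0.24, adjusted p = 8.02e-06). Of 16 further CDK1 partners and G2/M genes, LMNB1 was lower at -1.07 and 6 were higher, among them H2AFZ at 1.02. CDC25A stands both in this list and in the list of G2 checkpoint genes below, and it counts as higher in each.

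Of the 17 tested regulators of the G2/M programme, 4 were lower and 5 higher with cisplatin, the lower ones at a share close to that of all genes. MYBL2, which activates these genes with MuvB, was at 133, 138 and 123 CPM in untreated cells, 259.8, 246 and 259 with cisplatin, 316, 336 and 341 with Telmisartan, 303, 288 and 244 with Tranilast and 459, 489 and 405 with Amphotericin B, and it rose in each of the 4 comparisons with untreated cells, by 0.96 with cisplatin, 1.33 with Telmisartan, 1.08 with Tranilast and 1.78 with Amphotericin B, with adjusted p of at most 0.000493 in the edgeR test. TFDP1, a partner of E2F factors, had 1.69 with cisplatin. FOXM1 was at 31.2, 34.5 and 33.3 CPM in untreated cells, 24.6, 59.4 and 67.5 with cisplatin, 34.7, 50.8 and 50.9 with Telmisartan, 55.5, 46.6 and 45.4 with Tranilast and 23.5, 30.5 and 20.1 with Amphotericin B. It had 0.62 with cisplatin, with an adjusted p of 0.0728 by edgeR, and was lower with Amphotericin B than with cisplatin, at -1.05 (SE 0.30, adjusted p = 0.0316).

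Of 16 G2 checkpoint genes and CDK1 inhibitors, 1 was lower and 5 were higher with cisplatin. PKMYT1 and WEE1, the kinases that hold CDK1 inactive, had 1.37 (SE 0.20, adjusted p = 4.38e-05) and 0.95 (SE 0.27, adjusted p = 0.00993), and CLSPN, an adaptor for CHK1, had 1.99. WEE1 was at 14.3, 14.4 and 13.5 CPM in untreated cells and 16.8, 33.8 and 30.2 CPM with cisplatin, and the lowest of the cisplatin values, in replicate 1, lay above every untreated value. CDC25A, the phosphatase of the G1/S and G2/M steps, was at 23.3, 27.6 and 26.7 CPM and 30.2, 153 and 139 CPM, with 2.05 (SE 0.39, adjusted p = 0.000463). CHEK1 and GADD45A had 0.51 and -0.35 and did not pass. CDKN1A (p21), an inhibitor of cyclin-dependent kinases, was at 3.83, 3.74 and 6.11 CPM in untreated cells, 6.16, 7.85 and 9.93 with cisplatin, 3.57, 11.0 and 9.08 with Telmisartan, 18.2, 19.6 and 16.5 with Tranilast and 9.96, 14.4 and 5.96 with Amphotericin B. It did not pass with cisplatin, at 0.81 (SE 0.39, adjusted p = 0.103), and it was higher with Tranilast than with cisplatin, at 1.16 (SE 0.35, adjusted p = 0.0257).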

How the data were processed

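Total RNA (100 ng) from 15 IGROV-CP20 libraries was sequenced with QuantSeq 3′ kits, which read the 3′ end of polyadenylated transcripts, as 75 bp single-end reads. The authors deposited raw read counts per Ensembl gene, 1 table per library. Per the labels' processing notes, STAR 2.3.0, HTSeq and the genome build hg19 were used. Annotation and strand setting are not given in the sources used here. Symbols and gene spans came from GENCODE 29 on GRCh38, and promoters from RefSeq.

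Groups came from the labels. The 38 members and the other gene lists were chosen with earlier results of these data known. Genes were kept with edgeR 4.0.16 filterByExpr (minimum count 10), scaled by TMM and tested with edgeR's quasi-likelihood test in R 4.3.3 on all 15 libraries with no replicate block. P-values were adjusted by Benjamini-Hochberg over 11113 genes with a threshold of 0.05. Levels are CPM on TMM-scaled library sizes. Scripts were tested on simulated data. Library values are printed for the members with the highest mean level in each role group (2, or 3 in groups of over 6) and for the 3 members with the smallest p in each direction of each comparison. Other genes are FOXM1, MYBL2, CDKN1A, GADD45A, WEE1, CHEK1, CDC25A and CCNE1, and the 2 with the smallest p of each other list. The 24 alternative fits comprised DESeq2 1.42.0, the likelihood ratio test, other scalings, no filter, a replicate block, a mitochondrial rRNA covariate, only the compared libraries, each library left out, and a fit added after seeing the data without the cisplatin and Telmisartan libraries above 10% mitochondrial rRNA. Total counts of 1510620 to 3517041 put the limit that a count of 0 allows (3 counts) at 8.53e-05 to 0.000199% of a library. Counts come from reads without molecular identifiers, so this limit covers counting error only. P-values weigh a difference against the spread between libraries of the same condition, estimated together over all 15 libraries in the main fit. The conditions differ in that spread, with a median coefficient of variation over members from 7.56% (untreated) to 22.2% (cisplatin). The summed leukocyte marker list is not reported here.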

Additional observations from a re-analysis of the deposited data

How the results depend on the processing

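Of the 20 calls between cisplatin and untreated cells, 11 held under all 24 alternative fits, as did 2 of 6 for Tranilast against cisplatin, 0 of 2 for Amphotericin B against cisplatin, and 3 of 6, 6 of 15 and 5 of 17 for Tranilast, Telmisartan and Amphotericin B against untreated cells. Of the calls of Tranilast against Telmisartan and Amphotericin B, 0 of 2 and 0 of 9 held. The causes of the changes below were not tested. Below, counts of members stand without the share of all genes called in the same fit. They show how the counts moved with the fit, not whether the members differed from all genes.

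With library sizes alone, the median log2 fold change of all genes moved to -0.36 (cisplatin against untreated), 0.46 (Tranilast against cisplatin), -0.75 (Amphotericin B against untreated) and 0.81 (Tranilast against Amphotericin B). Members called were then 0 higher for cisplatin against untreated, 2 lower and 10 higher for Tranilast against cisplatin, 1 higher for Amphotericin B against cisplatin, 3 lower for Tranilast against untreated, 0 higher for Telmisartan against untreated, 23 lower and 1 higher for Amphotericin B against untreated, 0 lower for Tranilast against Telmisartan, and 2 lower and 28 higher for Tranilast against Amphotericin B, where CCNB2 at 0.66 and DLGAP5 at 0.22 changed sign.

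With the mitochondrial rRNA covariate, 1 member was higher for Tranilast against cisplatin, 1 lower for Telmisartan against cisplatin, 1 higher for Amphotericin B against cisplatin, 13 lower and 3 higher for Tranilast against untreated, 7 lower and 5 higher for Telmisartan against untreated, 6 lower for Amphotericin B against untreated, 0 lower for Tranilast against Telmisartan, and 0 lower and 0 higher for Tranilast against Amphotericin B. Signs changed for CCNA2 (0.91), AURKA (0.53), BIRC5 (-0.056), UBE2C (-0.10) and PTTG1 (-0.17) in Amphotericin B against untreated, and for CENPF (-0.033) and NDC80 (-0.21) in Tranilast against Amphotericin B. Libraries did not overlap in that share for cisplatin, Telmisartan or Amphotericin B against untreated, nor for Tranilast against any other treated condition. In those comparisons the covariate fit cannot separate the share from the condition.

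Without the cisplatin and Telmisartan libraries above 10% mitochondrial rRNA, counts were 6 higher for Tranilast against cisplatin, 3 lower and 2 higher for Telmisartan against cisplatin, 8 lower and 5 higher for Amphotericin B against cisplatin, 14 lower and 4 higher for Tranilast against untreated, 0 lower for Tranilast against Telmisartan, 11 higher for Tranilast against Amphotericin B, and 6 lower and 10 higher for Telmisartan against Amphotericin B. That fit tested 12183 genes, and its lone Telmisartan library is assumed to vary like the other groups. Its cisplatin libraries (5.61 and 3.41%) and its Telmisartan library (3.61%) did not overlap the Amphotericin B ones (12.3 to 14.8%) in mitochondrial rRNA share. In its comparisons with Amphotericin B, that share and the condition cannot be told apart. BIRC5 (-0.020) and CDC20 (-0.65) changed sign in Telmisartan against untreated, and UBE2C (-0.66) in Telmisartan against Amphotericin B.

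RLE factors gave 2 higher for Tranilast against Amphotericin B, and the likelihood ratio test 4 higher for Tranilast against cisplatin. No filter gave 1 lower for Amphotericin B against cisplatin and 8 higher for Tranilast against Amphotericin B. Only the 6 libraries compared gave 0 higher for Amphotericin B against cisplatin, 17 lower and 6 higher for Tranilast against untreated and 0 lower for Tranilast against Telmisartan.

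Leaving out 1 library at a time gave 12 to 15 lower and 3 to 5 higher for cisplatin against untreated, 3 to 4 and 0 to 5 for Tranilast against cisplatin, 0 to 0 and 0 to 1 for Telmisartan against cisplatin, and 0 to 4 and 1 to 4 for Amphotericin B against cisplatin. It gave 3 to 8 and 0 to 0 for Tranilast, 7 to 13 and 1 to 4 for Telmisartan, and 11 to 16 and 2 to 4 for Amphotericin B against untreated. It gave 0 to 4 and 0 to 4 for Tranilast against Telmisartan, 4 to 5 and 0 to 8 for Tranilast against Amphotericin B, and 0 to 1 and 0 to 0 for Telmisartan against Amphotericin B. Without cisplatin replicate 2 or Tranilast replicate 2 or 3, no member was higher for Tranilast against cisplatin, and without Telmisartan replicate 3 there were 5. Without Amphotericin B replicate 3, no member was higher for Tranilast against Amphotericin B, and without Telmisartan replicate 3 there were 8.

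Replicate numbers were not taken to pair the libraries, since 3 of 30 same-number pairs had deviations correlated over 0.1 (range -0.2347 to 0.6314). For Telmisartan and cisplatin, replicates 1, 2 and 3 had 0.3106, -0.1739 and 0.6314. Telmisartan replicate 2 reached 0.4812 with a cisplatin library of another number. With the replicate block, 14 members were lower and 5 higher for cisplatin against untreated, 4 and 3 for Tranilast against cisplatin, and 4 and 5 for Tranilast against Amphotericin B. Depth limits the members with few counts, among them ESPL1, TTK, CENPA and KIF20A with as few as 6, 9, 11 and 11 counts in a library.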
